A study of Mus musculus with 6 samples.

Results

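Oligodendrocytes are built by a small set of transcription factors, and 10 of them are described here: Olig1, Olig2, Nkx2-2, Sox10, Sox8, Myrf, Nkx6-2, Zfp488, Zfp536 and St18. They were chosen by gene name as factors of oligodendrocyte specification and myelination. All 10 were found among the 46983 features of the deposited table, and all 10 were among the 15153 features with enough reads to be tested. Olig2 and Olig1 are basic helix-loop-helix proteins, and Olig2 commits neural progenitors to the lineage. Sox10 and the related Sox8 bind enhancers of lineage and myelin genes. Myrf, a membrane-bound factor that cleaves itself, enters the nucleus and works with Sox10 to switch on myelin genes as precursors mature.

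The study compared oligodendrocytes isolated fresh from mouse brain, without culture, in 3 control (WT) and 3 Qk-KO libraries. Both groups are of an FvB/C57BL6 hybrid strain, and both received tamoxifen at 8 weeks of age, with brains taken 4 days later. Qk-KO mice carry Plp-CreERT2 and QKLoxP/LoxP: a promoter active in myelinating cells drives a tamoxifen-dependent Cre recombinase that removes a floxed part of Qk. Qk encodes quaking, an RNA-binding protein of splicing, RNA transport and RNA stability. The sources used here do not give the alleles that the control mice carried. Nothing in the labels ties a library to a mouse of its own, and the spread that the p-values rest on may therefore be technical.

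Values are regularized log2 values, which are scaled between libraries and shrunk more strongly where a gene has few reads. The libraries fell into separate types by their ribosomal RNA share, which was 59.8% to 64.8% of the signal in Qk-KO replicate 1 and all 3 of WT but 1.88% to 2.23% in the remaining Qk-KO replicates, 2 and 3. Outside ribosomal RNA, approximate depth was 8700000 to 13100000 reads in the first 4 libraries and 70000000 to 77100000 in the other 2. Qk itself, counted over the whole gene, changed by 0.21 ± 0.25 (SE, limma adjusted p = 0.567), a value that cannot separate the floxed part from the rest and so checks no label. All 10 oligodendrocyte markers checked had reads, and their summed normalised signal was 505336 to 659341 in WT and 691862 to 774613 in Qk-KO. The sums were 126322 to 158648 and 18772 to 29606 for 10 astrocyte markers, of which 9 fell and none was at 0. Markers of microglia rose for 5 of 10 (sums of 20385 to 23581 in WT and 24231 to 87686 in Qk-KO), and those of endothelial and mural cells fell for 8 of 8 and 7 of 8. Over all features tested, 13.8% rose and 14.8% fell. The part of these cell types in the results was not tested. In bulk RNA, a change in the share of a cell type and a change in RNA per cell cannot be told apart.

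Of the 10 factors, 5 rose in Qk-KO and none fell: Zfp488, Sox8, Zfp536, Olig2 and Nkx6-2, by 1.45-fold to 1.95-fold. "Rose" means a Benjamini-Hochberg adjusted p under 0.05 from limma over all features tested. Over all of these, 13.8% were called higher and 14.8% lower. The median change of the 10 factors was 0.49 on the log2 scale, against 0.03 over all features tested. No Qk-KO library overlapped the WT range for 7 of the 10, the 5 above with Olig1 and St18, and this held in that direction for 24.5% of all features. The other 3, Sox10, Myrf and Nkx2-2, overlapped. These changes are on the authors' scaling, which centres the libraries on the bulk of the genes. When the scale was set instead by the oligodendrocyte markers of each library, none of the 10 was called higher, as were 1.21% of all features.

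**Figure D1:**
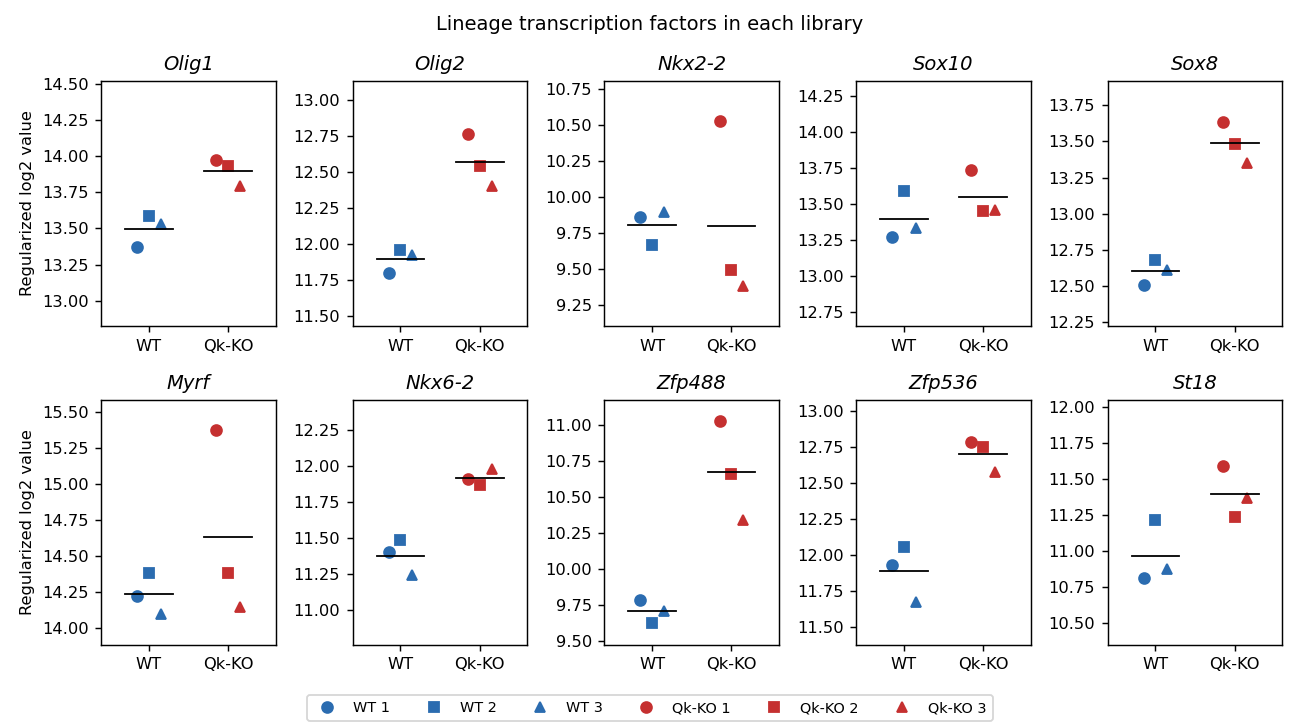
Regularized log2 value (vertical axis, same span in every panel) of the 10 factors in each library, WT blue and Qk-KO red, with 1 symbol per replicate and a black line at the group mean of 3 libraries. The groups are apart in 7 panels, and in the panels of Sox10, Myrf and Nkx2-2 only Qk-KO replicate 1 lies above the WT points.

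The factors are transcribed at very different levels. Adjusted for exon length, as signal per kilobase of exon per 1000000 of signal outside ribosomal RNA, Olig1 was highest in WT with 268 ± 16.5 (SD, n = 3). Sox10 followed at 178 ± 14.4, Myrf at 113 ± 7.22 and Sox8 at 99.6 ± 4.18. Each of these lay apart from its neighbour in the order, with no overlap between WT ranges. Olig2 at 75.3 ± 3.53 and Nkx6-2 at 70.0 ± 3.94 overlapped each other. Lower were Zfp536 at 20.7 ± 2.11, then Nkx2-2 at 15.7 ± 1.88 and St18 at 15.5 ± 1.78, which overlapped. Zfp488 was lowest at 9.74 ± 0.857. In Qk-KO, Sox8 at 190 ± 8.56 stood above Myrf at 161 ± 64.6, the reverse of their WT order, although the SD of Myrf spans the mean of Sox8. Lengths come from merged exons of a later annotation than the one counted and include retained introns of some factors, so the order is approximate.

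**Figure D2:**
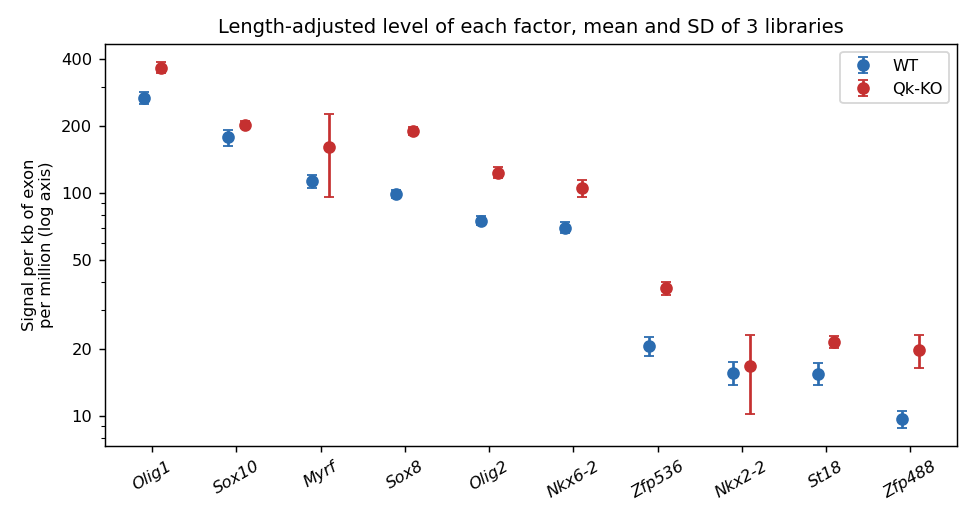
Length-adjusted level (vertical log axis, signal per kilobase of exon per 1000000 of signal outside ribosomal RNA) of each factor, in the order of the WT mean. Points are means and bars SDs of 3 libraries, WT blue and Qk-KO red: Olig1 is highest at 268 and 366, and Zfp488 is lowest in WT at 9.74.

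Among the specification factors, Olig2 rose. This basic helix-loop-helix repressor stays on in mature oligodendrocytes. The WT libraries, always listed here as replicates 1, 2 and 3, read 11.80, 11.96 and 11.92 on the log2 scale, and the Qk-KO libraries 12.76, 12.54 and 12.40. Every Qk-KO library was above every WT library. The change was 0.67 ± 0.13 (SE, 1.59-fold, limma adjusted p = 0.00710).

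Olig1, which acts in myelin gene expression and repair, lies 41.1 kb downstream of Olig2 on chromosome 16, on the same strand. Olig2 spans 91225457 to 91228677 and Olig1, a gene of 1 exon, spans 91269772 to 91271933 (mm10). The log2 values of Olig1 were 13.37, 13.59 and 13.53 across WT and 13.98, 13.93 and 13.80 across Qk-KO. The groups did not overlap, but the change of 0.41 ± 0.13 missed the threshold (adjusted p = 0.0541). It passed under 6 of the other settings, among them the authors' deposited table, where it was 0.47 ± 0.15 with an adjusted p of 0.00835. Within each library, Olig2 minus Olig1 was -1.57, -1.63 and -1.61 across WT and -1.22, -1.40 and -1.39 across Qk-KO on the log2 scale. That difference does not depend on how the libraries are scaled, and it was higher in all 3 Qk-KO libraries. The exact two-sided permutation test gave 0.10, the smallest p that 3 libraries against 3 allow, or 0.15 adjusted over the 3 pairs of factors compared here.

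Nkx2-2, a homeodomain factor that sets the timing of differentiation, split the Qk-KO libraries. WT read 9.86, 9.67 and 9.89, Qk-KO replicate 1 read 10.52, and the remaining Qk-KO libraries read 9.49 and 9.38. Qk-KO replicate 1 was above all WT libraries and the other 2 were below them. Over all 6 libraries the change was -0.01 ± 0.28 (adjusted p = 0.987). Qk-KO replicate 1 alone differed from WT by 0.72 (adjusted p = 0.0230, with the spread taken from WT alone). Replicates 2 and 3 differed from WT by -0.37 (adjusted p = 0.0477). Its exons share 278 bases, 9.67% of their length, with the antisense gene Nkx2-2os, which rose by 0.74 ± 0.20 (adjusted p = 0.0245). The sources used here do not say whether counting used strand, so reads over the shared part cannot be assigned to either gene.

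Of the SoxE factors, which share a high-mobility-group DNA-binding domain, Sox8 rose and Sox10 did not pass the test. Sox10 had log2 values of 13.27, 13.59 and 13.34 across WT and 13.74, 13.45 and 13.46 across Qk-KO. WT replicate 2 lay above Qk-KO replicates 2 and 3. The change was 0.15 ± 0.15 (adjusted p = 0.476), with a 95% interval from -0.19 to 0.49. Sox8, which overlaps with Sox10 in function and is the less abundant in WT, had 12.51, 12.68 and 12.61 across WT and 13.63, 13.48 and 13.35 across Qk-KO. The gap between the groups was wider than the range within either, and the change was 0.89 ± 0.13 (1.85-fold, adjusted p = 0.00204).

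Sox8 minus Sox10 within a library was -0.77, -0.91 and -0.73 across WT and -0.10, 0.03 and -0.11 across Qk-KO. On this scale-free measure the groups were apart by 0.74 (exact permutation p = 0.10, the smallest possible; 0.15 adjusted over the 3 pairs). The exons of Sox8 share 329 bases, 10.6% of their length, with the antisense gene 2810468N07Rik. That gene also rose, by 1.09 ± 0.13 (adjusted p = 0.000855), and without strand their reads over the shared part cannot be told apart. Sox9, the remaining SoxE gene and one that astrocytes also express, had 11.07, 11.17 and 11.03 across WT and 8.86, 8.05 and 7.76 across Qk-KO. It fell by 2.87 ± 0.25 (adjusted p = 0.000249), in the libraries where the astrocyte markers fell.

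Among the factors of differentiation and myelination, Myrf followed the pattern of Nkx2-2 in part. WT read 14.22, 14.39 and 14.10, Qk-KO replicate 1 read 15.38, and the remaining Qk-KO libraries read 14.38 and 14.15. Only Qk-KO replicate 1 stood above WT, and the other 2 lay within the WT range. Over all libraries the change was 0.40 ± 0.31 (adjusted p = 0.352). Qk-KO replicate 1 alone differed from WT by 1.14 (adjusted p = 0.00660), and replicates 2 and 3 by 0.03 (adjusted p = 0.90).

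Nkx6-2, a homeodomain factor of myelinating cells, had the narrowest Qk-KO range of the 5 that rose. It had 11.41, 11.49 and 11.25 across WT and 11.91, 11.87 and 11.98 across Qk-KO. The change was 0.54 ± 0.11 (1.45-fold, adjusted p = 0.00933). Its exons share 246 bases, 12.9% of their length, with Inpp5a on the other strand, whose change was -0.36 ± 0.19 (adjusted p = 0.175). Nkx6-2 minus Nkx2-2 within a library was 1.55, 1.82 and 1.35 across WT and 1.39, 2.38 and 2.60 across Qk-KO, and these ranges overlapped (exact permutation p = 0.30, also 0.30 after adjustment over the 3 pairs).

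Zfp488, a zinc finger repressor that works with Olig2, had a fitted change above that of Sox8 over all 6 libraries (0.97 and 0.89) but below it without Qk-KO replicate 1 (0.79 and 0.82). Its log2 values were 9.79, 9.63 and 9.71 across WT and 11.02, 10.66 and 10.34 across Qk-KO. The WT libraries lay close together and the Qk-KO libraries were spread over a wider range above them. The change was 0.97 ± 0.17 (1.95-fold, adjusted p = 0.00542). Zfp488 also had the fewest reads of the 10 in any library, about 370, so pull toward the mean could understate its change. The authors' deposited table gives 1.18 ± 0.24. Its changes are also above those fitted here for factors with more reads, such as Sox8 (1.04 and 0.89) and Olig2 (0.79 and 0.67).

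Zfp536, a zinc finger protein made in differentiating oligodendrocytes, had 11.93, 12.06 and 11.68 across WT and 12.79, 12.75 and 12.58 across Qk-KO. No library overlapped, and the change was 0.82 ± 0.14 (1.76-fold, adjusted p = 0.00384). St18, a zinc finger gene of the Myt family, had 10.81, 11.21 and 10.87 across WT and 11.59, 11.23 and 11.37 across Qk-KO. The groups were separated by the narrow gap between WT replicate 2 and Qk-KO replicate 2. The change of 0.43 ± 0.15 did not pass (adjusted p = 0.0620), but passed without WT replicate 2 (0.55, adjusted p = 0.0373).

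**Figure D3:**
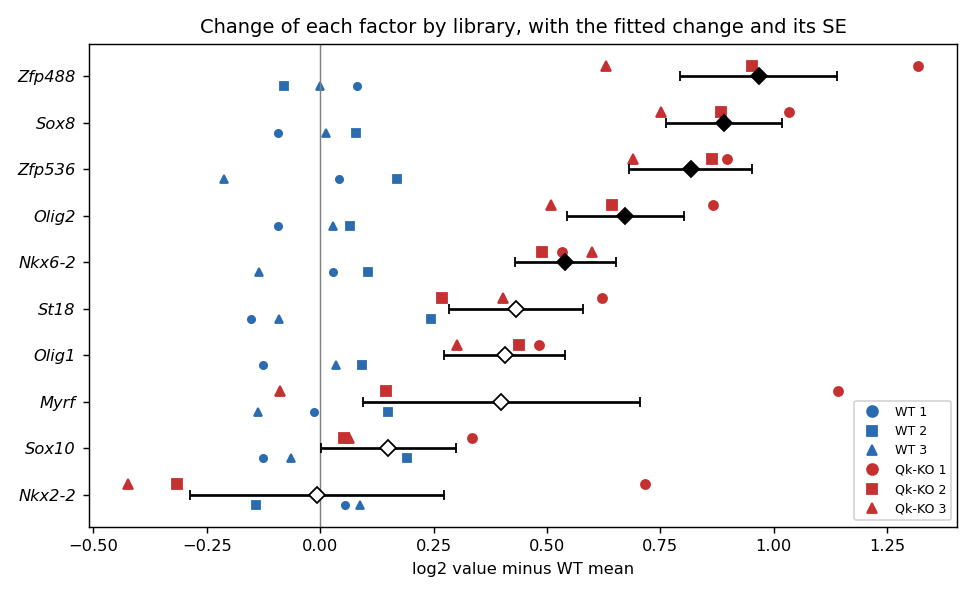
log2 value minus the WT mean (horizontal axis) of each factor, ordered by fitted change, with 1 symbol per library (WT blue, Qk-KO red) and the limma change with its standard error as a diamond, filled where the adjusted p is under 0.05. The filled diamonds run from 0.54 for Nkx6-2 to 0.97 for Zfp488, and Qk-KO replicate 1 is the highest point for every factor except Nkx6-2.

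Qk-KO replicate 1 was the highest of the 6 libraries for 9 of the 10 factors, and for Nkx6-2 it was Qk-KO replicate 3. The median of the 10 changes from the WT mean was 0.79 in Qk-KO replicate 1, 0.46 in replicate 2 and 0.46 in replicate 3. Qk-KO replicate 1 shares its high ribosomal RNA share with WT, and against WT alone it gave 7 factors called higher, the 5 above with Myrf and Nkx2-2, where 6.17% of all features were called higher. That fit takes the spread from WT alone, as if Qk-KO varied equally, and the part of the ribosomal RNA share in these differences was not tested. Qk-KO replicates 2 and 3 against WT gave the same 5 higher, where 18.7% of features were, and Nkx2-2 lower, where 18.4% were. The 5 calls also held with each library left out in turn, with adjusted p of at most 0.0463, which is the value of Nkx6-2 without WT replicate 3. The authors' deposited table calls these 5 and Olig1 higher, against 16.4% of features.

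Oligodendrocyte markers rose in the same libraries. The mean log2 value of the 10 markers, Mbp, Mog and Opalin among them, was 14.58, 14.96 and 14.57 across WT and 15.31, 15.49 and 15.36 across Qk-KO, a difference of 0.68 (exact permutation p = 0.10, the smallest possible). Of the 10, 6 rose and none fell, where 13.8% of all features rose and 14.8% fell. Set against this mean within each library, the factors that had risen no longer separated the groups. Olig2 minus the marker mean was -2.78, -3.002 and -2.64 across WT and -2.55, -2.95 and -2.96 across Qk-KO, with means of -2.81 and -2.82. Sox8 was -2.07, -2.28 and -1.95 across WT and -1.67, -2.005 and -2.01 across Qk-KO. Its difference was 0.21 (exact permutation p = 0.30, 0.50 adjusted over the 10 factors).

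On this scale the differences of Zfp488, Zfp536 and Nkx6-2 were 0.28, 0.13 and -0.14, and their groups overlapped. Sox10 was the only one of the 10 whose groups did not overlap. It was -1.30, -1.37 and -1.23 across WT and -1.57, -2.03 and -1.898 across Qk-KO, lower by 0.53 (exact permutation p = 0.10, 0.50 adjusted). In limma with the marker mean as the scale, Sox10 was called lower (adjusted p = 0.0211), but so were 58.5% of all features. This scale was chosen after the data were seen, and the part that the share of oligodendrocytes plays in the rises was not tested.

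**Figure D4:**
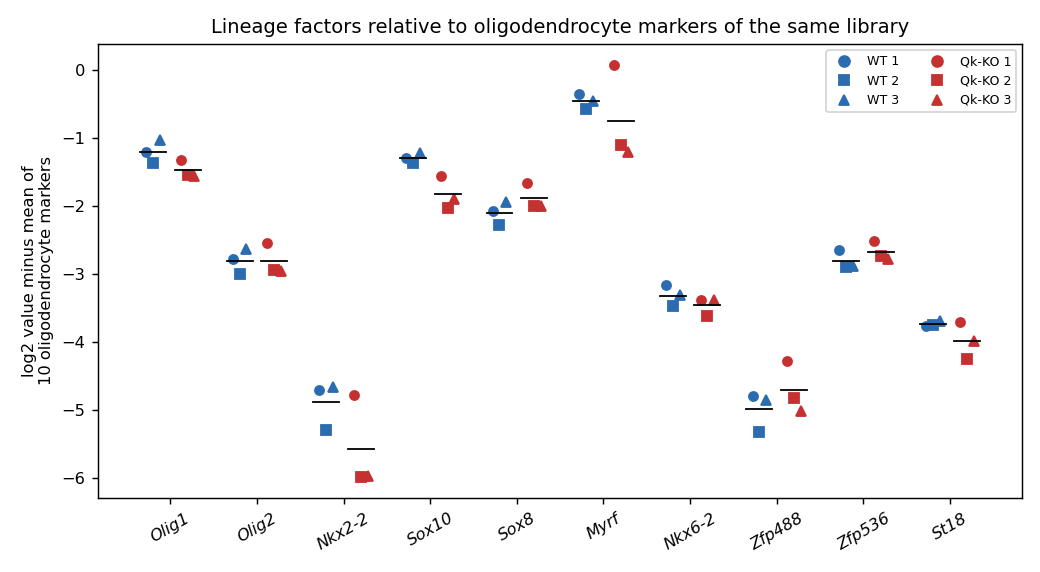
log2 value of each factor minus the mean of 10 oligodendrocyte markers in the same library (vertical axis), WT blue and Qk-KO red, 1 symbol per replicate, with black lines at group means. WT and Qk-KO points overlap for 9 factors, and the 3 Qk-KO points of Sox10, from -2.03 to -1.57, lie below its WT points.

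Promoters are shown for 4 of the 5 members that rose, to compare their letters. RefSeq promoter sequences (GRCm38.p6, the same assembly as mm10) were matched for 6 of the 10 factors, among them all 5 that rose. That of Zfp536 was searched but is not printed, since 210 of its 250 bases lie in annotated exons. Those of Sox8, Zfp488 and Nkx6-2 are the 250 bases before the transcription start, and that of Olig2 is the 157 bases before its earliest annotated start. Capitals mark an E-box (CANNTG), a GC box (GGGCGG) or a CCAAT box on either strand.
Sox8, chr17:25570687-25570936, minus strand: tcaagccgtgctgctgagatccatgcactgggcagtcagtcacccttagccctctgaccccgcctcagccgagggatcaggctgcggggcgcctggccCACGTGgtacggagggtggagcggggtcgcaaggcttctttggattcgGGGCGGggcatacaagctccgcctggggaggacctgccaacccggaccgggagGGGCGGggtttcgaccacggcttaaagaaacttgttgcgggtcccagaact
Zfp488, chr14:33978765-33979014, minus strand: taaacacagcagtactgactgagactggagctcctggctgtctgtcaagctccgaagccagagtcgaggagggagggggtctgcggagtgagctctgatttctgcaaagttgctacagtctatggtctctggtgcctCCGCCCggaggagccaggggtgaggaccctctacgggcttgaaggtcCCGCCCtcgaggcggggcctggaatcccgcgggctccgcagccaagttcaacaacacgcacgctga
Nkx6-2, chr7:139582798-139583047, minus strand: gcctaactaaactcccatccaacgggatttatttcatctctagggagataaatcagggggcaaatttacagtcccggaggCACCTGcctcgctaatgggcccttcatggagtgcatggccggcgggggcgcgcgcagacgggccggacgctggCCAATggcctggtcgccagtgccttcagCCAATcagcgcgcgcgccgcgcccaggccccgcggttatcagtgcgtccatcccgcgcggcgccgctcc
Olig2, chr16:91225300-91225456, plus strand: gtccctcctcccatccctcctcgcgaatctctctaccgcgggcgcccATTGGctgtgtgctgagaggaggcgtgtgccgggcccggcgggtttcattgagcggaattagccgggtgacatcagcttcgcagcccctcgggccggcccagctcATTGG

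No motif searched was found in all 5 promoters. Their GC content was 65.6% for Sox8, 61.6% for Zfp488, 65.2% for Nkx6-2, 58.8% for Zfp536 and 66.8% for the full 250 bases of Olig2, against a median of 60.0% over 10458 promoters of tested genes. Sox8 and Nkx6-2 held 1 E-box each, the motif bound by basic helix-loop-helix proteins, and 56.8% of the 10458 promoters hold at least 1. GC boxes, which 59.4% of promoters hold, were found 2 times each in Sox8, Zfp488 and the full Olig2 window, and CCAAT boxes, which 36.1% hold, 2 times each in Nkx6-2 and Olig2. A SOX motif, AACAAT, was found 1 time in the full Olig2 window, past the printed bases, against 5.12% of promoters, and ACAAAG in none of the 5 (11.8% of promoters). None of the 5 windows held the E-box CAGCTG (11.8% of promoters), the E-box CATATG (1.42%), the Myrf motif CTGGCAC (4.25%) or the NK2 motif TNAAGTG (7.38%). The homeodomain motif TAATTA, which 2.19% of promoters hold, was found 1 time, in the Zfp536 window, which held no other motif searched. The TATA box, TATAAA, was found 1 time, in the part of the Olig2 window that is not printed (6.09% of promoters). A match to letters is a description of the window and says nothing on binding.

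Quaking binds RNA at a core of the letters ACUAAC, or ACUAAU in a variant form, often with a shorter piece of the same letters nearby, so the annotated 3' untranslated regions of the 10 factors were searched for these cores, with T written for U. They held matches in 3 of the 10 factors, against 32.1% of 12773 tested genes. The core is in capitals, in windows of 30 bases on the transcribed strand.
Olig2, chr16:91227681-91227710: ggaagtctaaaaACTAACtttccggtgtac
Sox8, chr17:25566304-25566333: agagcctccccaACTAACctgcttaggttc
St18, chr1:6858704-6858733: ttgcaacattgcACTAATttttccccagct
St18, chr1:6858889-6858918: attttatttattACTAATcaaagagttttt

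Only the St18 cores have such a piece (TAAC, or its variant TAAT) between 1 and 20 bases away, and 13.1% of genes hold such a pair. Per kilobase the 10 factors held 0.288 cores, against 0.344 over all genes searched. Olig2 and Sox8 rose and St18 did not pass the test, while Zfp488, Zfp536 and Nkx6-2, which rose, had no core in the untranslated region searched. That region was taken from the transcript of each gene with the longest coding sequence. The region searched was short for Zfp536 (161 bases) and Nkx6-2 (214 bases).

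Of 16 partner genes, which encode E proteins that pair with Olig factors and chromatin proteins, 2 rose, 1 fell and 13 did not pass, with a median of 0.12. These shares are no higher than the 13.8% and 14.8% of all features that rose and fell. Hdac11, a histone deacetylase, had 11.68, 12.04 and 11.62 across WT and 12.42, 12.65 and 12.59 across Qk-KO, a rise of 0.77 ± 0.14 (adjusted p = 0.00639). The deacetylase gene Hdac2 rose by 0.40 ± 0.11 and the Mediator subunit gene Med12 fell by 0.46 ± 0.14. Both calls were lost when any 1 WT library or Qk-KO replicate 2 was left out (adjusted p from 0.0632 to 0.125 for Hdac2 and from 0.0656 to 0.141 for Med12), and that of Med12 also without Qk-KO replicate 3 (0.0898). In Qk-KO replicate 1 against WT none of the 16 was called, and the change of Hdac11 there was 0.64 (adjusted p = 0.0572).

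Of 14 other tested factors that promote differentiation, 4 rose (Thra, Stat3, Zeb2 and Klf6) and 1 fell, with a median of -0.09, where 13.8% of all features rose and 14.8% fell. The thyroid hormone receptor gene Thra had 12.38, 12.63 and 12.37 across WT and 13.15, 13.33 and 13.50 across Qk-KO, a rise of 0.87 ± 0.14 (adjusted p = 0.00352). Zeb2 rose by 0.63 ± 0.17 and Stat3 by 0.59 ± 0.15. The call of Zeb2 was lost on leaving out Qk-KO replicate 2, WT replicate 1 or WT replicate 3 (adjusted p of 0.0756 to 0.104). That of Stat3 was lost on leaving out Qk-KO replicate 2, WT replicate 2 or WT replicate 3 (0.0565 to 0.0850). Klf6, named after its values were seen to complete the count, rose by 0.55 ± 0.16 (adjusted p = 0.0339). Its call was lost on leaving out WT replicate 1 or 2 or either of Qk-KO replicates 2 and 3 (0.0602 to 0.109). Tcf7l2, a Wnt effector of the switch to myelination, read 9.67, 9.48 and 9.69 in WT, with 9.02 in Qk-KO replicate 1 and 7.36 and 7.10 in the remaining Qk-KO libraries. Its fall of 1.79 ± 0.44 lost the call without any 1 WT library or Qk-KO replicate 2 (adjusted p of 0.0555 to 0.0706).

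Factors that act in precursors or hold back differentiation were lower. Of 18 such genes 14 fell and none rose, with a median of -1.10, where 14.8% of all features fell. Hes5, a Notch target repressor, had 8.52, 8.67 and 8.86 across WT and 6.57, 6.32 and 6.01 across Qk-KO, a fall by 2.38 (SE 0.19, adjusted p = 0.000151). Etv4 and Etv5, targets of growth factor signalling, fell by 2.08 ± 0.14 and 1.31 ± 0.11. Many genes of this list are also expressed in astrocytes, and 9 of 10 astrocyte markers fell, with a median of -2.51. Of 10 markers of oligodendrocyte precursors 1 fell, and their summed normalised signal was 19051 to 36212 in WT and 9486 to 24793 in Qk-KO. The part of either cell type in the falls was not tested. Over all features tested, 18.4% were called lower in Qk-KO replicates 2 and 3 against WT. Falls were called for 10 of the 18 in Qk-KO replicate 1 against WT, as for 9.37% of features, and for 14 in replicates 2 and 3 against WT.

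Of 17 myelin and mature oligodendrocyte genes that lie downstream of the factors, 9 rose and none fell, with a median of 0.76. Over all features tested, 13.8% rose and 14.8% fell. Opalin, Mog and Gjb1 rose by 1.24 ± 0.15, 1.19 ± 0.18 and 1.07 ± 0.16. Of 10 close relatives of the factors, 5 were tested, of which Sox9 fell as given above and Nkx6-1 fell by 0.67 ± 0.13 at low levels, from 5.25 to 5.38 in WT and 4.52 to 4.73 in Qk-KO. The authors' deposited table gives -1.83 for Nkx6-1, and in Qk-KO replicate 1 against WT its call was lost (-0.79, adjusted p = 0.0556).

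**Figure D5:**
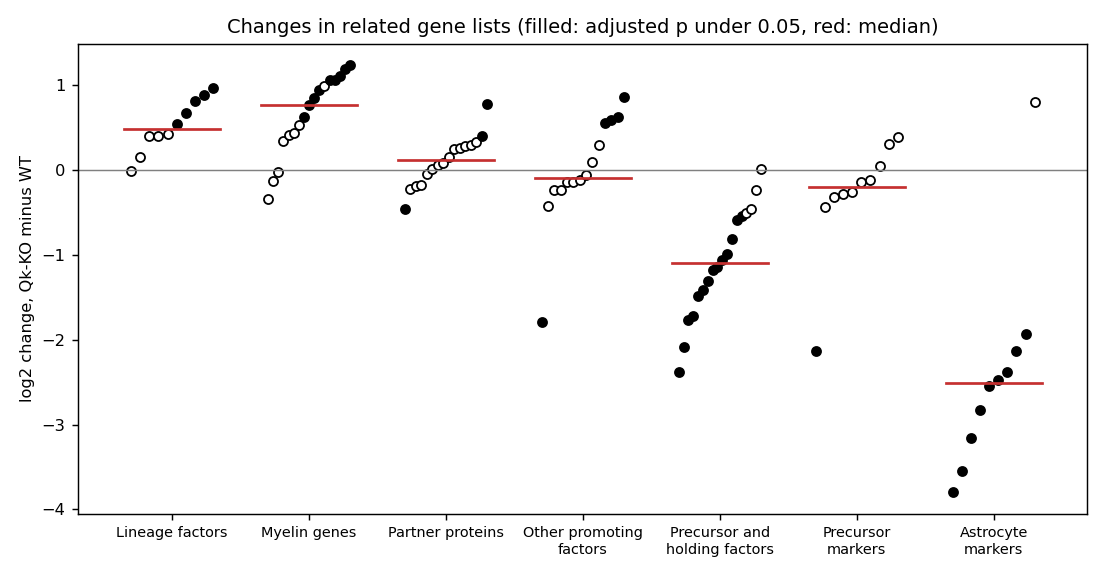
log2 change of Qk-KO minus WT (vertical axis) for each tested gene of 7 lists, 1 circle per gene, filled where the limma adjusted p is under 0.05, with a red line at the list's median. The lineage factors have a median of 0.49, the myelin genes 0.76, the precursor and holding factors -1.10 and the astrocyte markers -2.51.

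Genes with profiles like those of the factors were sought among 6394 features with a mean normalised count of at least 500, by Pearson correlation over the 6 libraries. These values are a description only, over libraries that share genotype and ribosomal RNA share. The most alike were Ncoa7 for Olig2 (0.997), Gorasp2 for Sox8 (0.998), Mfsd6 for Zfp536 (0.999), Tbl1xr1 for Zfp488 (0.996), Lonp1 for Nkx6-2 (0.995), Atp10b for Olig1 (0.997), Upf1 for St18 (0.988), Myo1d for Sox10 (0.980), Zdhhc9 for Myrf (0.995) and Ankrd11 for Nkx2-2 (0.993).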

How the data were processed

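The submitters' processing notes list TopHat2 2.0.14, featureCounts, DESeq2 and FastQC, and the mm10 build. The sources used here give neither annotation release nor strandedness nor read length. The per-library values the authors deposited are on a log2 scale and behave as regularized log2 values (the labels do not name the transformation). The deposited mean normalised count is a signal averaged over the 6 libraries. The deposited comparison holds log2 fold changes, a Wald score, p-values and adjusted p-values, per the file headers.

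The log2 values were tested in limma 3.58.1 under R 4.3.3 with a trend of variance on mean, without a pseudocount, over features with a mean normalised count of at least 20, with genotype as the only term. The fit was tested on simulated data. Read totals were estimated from size factors, read from the steps in mean normalised counts of weakly expressed features. Between about 370 and 89000 reads lay behind each value of a factor. Named genes are the 10 factors and, per related list, up to 3 called genes in each direction by adjusted p, with Klf6 added to complete a count; of the 3 most similar profiles per factor the first is printed. Alternatives covered filters, scalings, weights, covariates and left-out libraries. Members and lists were chosen with earlier results of these data known.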

Additional observations from a re-analysis of the deposited data

How the results depend on the processing

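The 5 rises (Zfp488, Sox8, Zfp536, Olig2 and Nkx6-2) kept their direction and call under every alternative run except scaling by the oligodendrocyte markers, chosen after the data were seen. Under that scaling 0 factors were called higher and 1 lower, where 1.21% and 58.5% of all features were. The median of the factors was -0.20 (all features: -0.65), and 9056 features were called in all. Changes turned to -0.28 for Olig1, -0.28 for Myrf, -0.25 for St18, -0.0098 for Olig2, -0.14 for Nkx6-2, -0.53 for Sox10 (adjusted p = 0.0211), -0.28 for Hdac2, -0.10 for Stat3, -0.13 for Klf6 and -0.058 for Zeb2. Library size alone, in which ribosomal RNA enters the total, gave 2447 calls, of which 2382 were rises, and a median of 1.54 for the factors (all features: 1.09); Med12 and Nkx6-1 turned to 0.60 and 0.39. With library type in the model 2258 features were called, and in Qk-KO replicate 1 against WT 2355, against 4330 in the comparison of all 6. In each the median of the factors was 0.79 and Nkx2-2 turned to 0.72. The changes are the same in both by construction, since only Qk-KO replicates 2 and 3 had the low ribosomal RNA share. With library type in the model, Qk-KO replicate 1 alone sets the genotype change. Qk-KO replicates 2 and 3 against WT gave 1 factor called lower, Nkx2-2, where 18.4% of all features were. Leaving out 1 library gave 2370 to 5633 calls, 5 to 6 factors higher, 0 to 1 lower and a median of 0.45 to 0.58. In these fits 6.13% to 18.7% of all features were called higher and 9.51% to 18.4% lower. Over the alternatives the adjusted p of Olig1 passed 6 times and that of St18 3 times. Deviations from the group mean correlated between same-numbered libraries with r of 0.00462 to 0.104, and between differently numbered ones with r of -0.121 to 0.058. With 3 libraries per group, whose deviations are tied to each other, these values cannot decide whether the numbers pair libraries. With the replicate block 4345 features were called, with the same 5 factors higher, where 13.8% of all features were. Depth limits Zfp488 and Nkx2-2 most, with as few as 370 and 390 reads. Scaling by the oligodendrocyte markers lowered the change of every feature by the same 0.68, the difference of the marker mean between the groups. Which scaling suits these libraries was not tested.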
